A study of Mus musculus with 67 samples.

Results

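The 51 genes of DNA replication and nucleotide supply were followed in single mouse vascular smooth muscle cells (the contractile cells of the artery wall) at passage 2 and passage 1 of culture. They were chosen by name for their part in replication, with no expression value in the rule, though earlier results of these data were known. All 51 were among the 39179 genes of the deposited table, and all 51 passed the filter on low values. The cells came from the descending aorta of male C57Bl6 mice aged 3 to 4 months. They were grown in 10% fetal bovine serum with 1% penicillin/streptomycin and left for 5 days. Passage 2 cells, 45 in number, were the trypsinised and replated offspring of passage 1 cells, of which 22 were sequenced. No treatment or allele set the passages apart. Each cell was captured on the Fluidigm C1 microfluidic system and made into 1 Nextera XT library, so that a value belongs to 1 cell.

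Which animal or dish a cell came from is not in the labels. Each passage is therefore 1 sample, no test between passages was made, and spreads and intervals cover cells or reads only. All passage 2 libraries carry 1 prefix in the labels and all passage 1 libraries another, so passage and library set cannot be told apart. Libraries held 548419 to 1509589 reads in passage 2 cells and 817021 to 1561129 in passage 1 cells, with a median of 7257 genes detected in passage 2 cells and 8477.5 in passage 1 cells. Of 10 smooth muscle markers, a median of 5 reached a value of 10 in passage 2 cells and 4 in passage 1 cells, and the median log2 ratio of the 10 was 2.06. Of 10 fibroblast markers, a median of 3 reached that value in passage 2 cells and 4 in passage 1 cells, with a median log2 ratio of 0.40. At passage 1 the 2 lists were thus on equally often, and the markers do not tell the 2 cell types apart there. Passage 2 cells 8 and 11, and passage 1 cells 11, 12, 13, 14 and 16, had at least 3 of 10 endothelial markers at that value. Of 24 lymphocyte, erythroid and striated muscle markers that the cells should lack, none reached a value of 10 in more than 8.89% of passage 2 cells or 9.09% of passage 1 cells, but Cd3d had a read in 33.3% of passage 2 cells and Lck in 31.8% of passage 1 cells. A share of cells is therefore given below at a value of 10, where a cell is said to have the gene on.

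Replication starts where the origin recognition complex sits on DNA and, with Cdc6 and Cdt1, loads the ring-shaped MCM helicase, a step that geminin blocks. Cdc45 and the GINS complex then switch the helicase on, and primase, the polymerases, the sliding clamp and the Okazaki fragment enzymes copy both strands, while ribonucleotide reductase and its partners supply nucleotides and histone chaperones rebuild chromatin behind the fork. Many of these genes are known targets of E2F transcription factors at entry into S phase, and smooth muscle cells of the healthy adult aorta, which rarely divide, are known to re-enter the cell cycle when cultured in serum.

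The promoters below are shown because they carry the letters of an E2F site in genes of the helicase ring, of its loading and of priming. RefSeq promoter windows on GRCm38.p6, from 250 bases before to 50 bases after a gene's start, were found for 43 of the 51 genes. The letters searched on both strands were TTTCCCGC, TTTCGCGC, TTTGCCGC and TTTGGCGC. Shown is 1 gene of each of 3 roles, on the gene's own strand from 5′ to 3′, with the matched letters in capitals. The stretches lie before RefSeq's start and outside every exon that GENCODE annotates, and Mcm5 holds overlapping matches on both strands.
Mcm5: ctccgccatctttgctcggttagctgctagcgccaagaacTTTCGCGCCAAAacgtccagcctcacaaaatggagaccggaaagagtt
Pola1: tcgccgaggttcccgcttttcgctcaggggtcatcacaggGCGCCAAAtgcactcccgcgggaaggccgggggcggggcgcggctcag
Cdc6: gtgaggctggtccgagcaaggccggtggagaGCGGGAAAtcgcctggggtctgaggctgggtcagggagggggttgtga
These stretches lie at chr8:75109316-75109403 on the plus strand (Mcm5), chrX:93632246-93632333 on the minus strand (Pola1) and chr11:98907982-98908060 on the plus strand (Cdc6). RefSeq and GENCODE starts can differ: the Cdc6 stretch lies after the GENCODE start of the gene, and those of Mcm5 and Pola1 lie before it.

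The E2F letters were in the windows of 16 of the 43 genes, or 37.2%, and in those of 704 of all 27025 genes with a window, or 2.60%. Of the 36 windowed genes that were at least 2-fold lower at passage 2, 14 held them. Of the other 7, Orc3 and Pole2 held them. The CCAAT box, searched on both strands, was in 62.8% of the 43 and in 41.1% of all genes. The letters TTTGAA or TTCGAA, the core of the cell cycle genes homology region, were in 18.6% of the 43 and in 21.7% of all genes. A match describes letters and is not a measured site.

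The 51 genes were lower at passage 2 almost throughout. The log2 ratio of mean values, passage 2 over passage 1 with 1 added to each mean, was below 0 for 50 of the 51 and had a median of -2.42, which is 5.35-fold lower at passage 2. The median over the 9832 genes kept by the filter was -0.08. Of the 51, 44 were at least 2-fold, 33 at least 4-fold and 15 at least 8-fold lower, while 18.7% of the 9832 genes were at least 2-fold lower. All-gene shares at 4-fold and 8-fold were not computed, and the 5th percentile of the 9832 genes was a log2 ratio of -2.22. Pold2 alone was higher at passage 2, by a log2 ratio of 1.10, and 15.3% of the 9832 genes were at least 2-fold higher. In 12 cells per passage matched on reads, Pold2 was at -1.53. In those cells 4 of the 51 genes were higher at passage 2, among them Prim1 (0.93) and Pole2 (2.07). Over all 67 cells, the 6 genes that were lower by less than 2-fold were Orc3, Orc4, Rfc1, Rfc5, Tyms and Pole2. Across all pairs of 1 passage 2 and 1 passage 1 cell, the passage 2 cell held the higher value in 6.01% of pairs for Mcm7 and 49.5% for Orc4, and the other genes lay between.

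**Figure D1:**
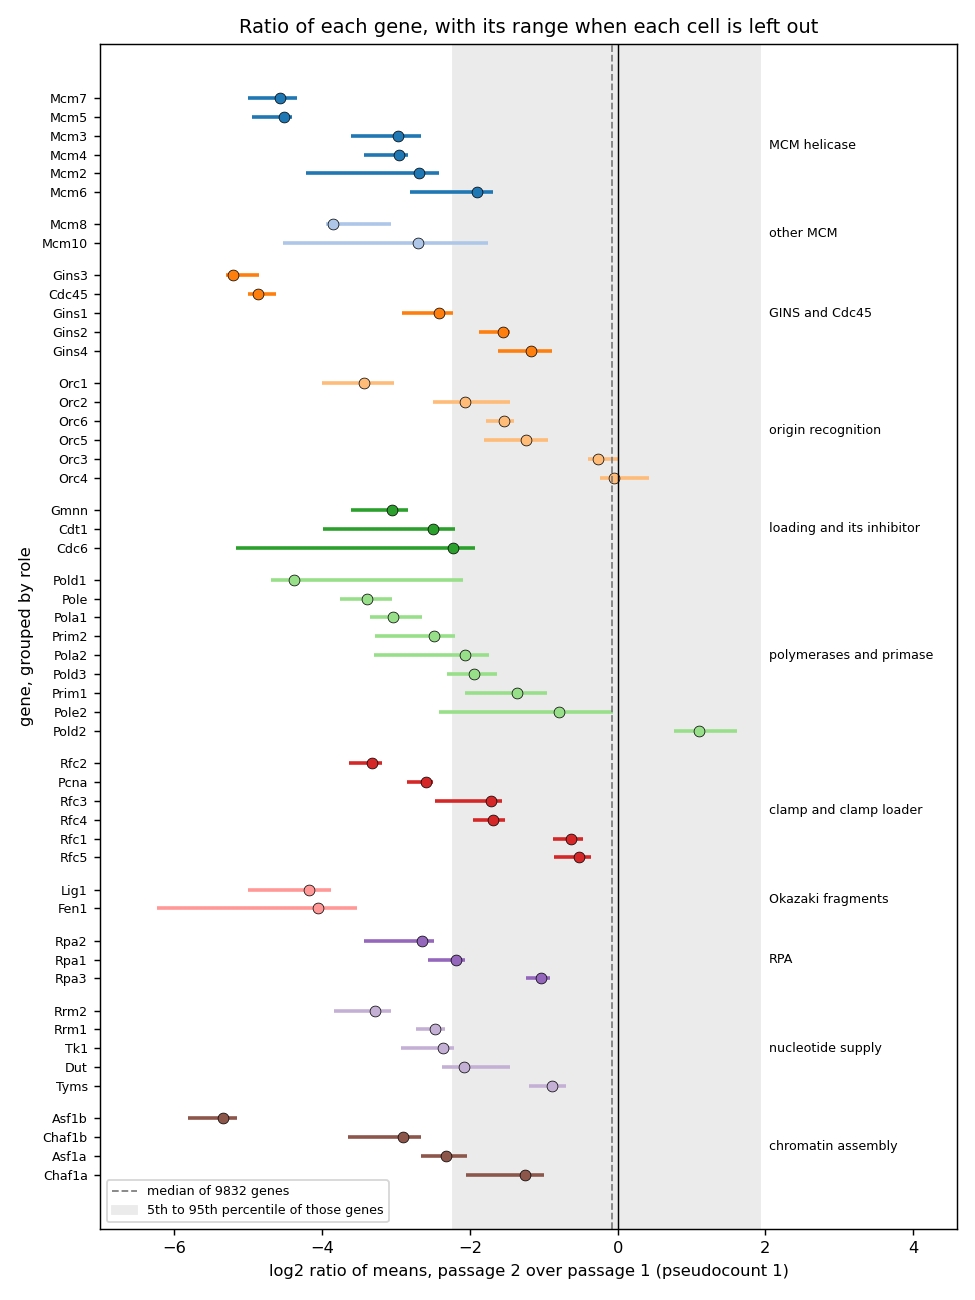
Log2 ratio of mean values, passage 2 over passage 1 (x axis, pseudocount 1), for each of the 51 genes grouped by role (y axis). Points are the ratios over all 67 cells, lines the range when each cell is left out in turn, the dashed line the median of 9832 genes and the grey band their 5th to 95th percentile. Asf1b, Gins3 and Cdc45 sit farthest to the left, Orc3 and Orc4 beside the all-gene median, and Pold2 alone to the right of 0.

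The passages also differed in how many of the 51 genes a cell had on. How much of the lower means this makes up was not tested. A passage 2 cell had 4 to 37 of the 51 on, with a median of 8, against 7 to 50 with a median of 35.5 in passage 1 cells. At least 10 were on in 10 of 45 passage 2 cells (22.2%, exact 95% interval 11.2 to 37.1%), against 21 of 22 passage 1 cells (95.5%, 77.2 to 99.9%). At least 25 were on in 1 passage 2 cell and in 16 passage 1 cells, and at least 40 in no passage 2 cell and in 4 passage 1 cells. The ranges overlapped: passage 2 cells 8, 9, 28 and 41 had 37, 23, 21 and 16 on, and passage 1 cells 7, 9 and 14 had 7, 12 and 13. The 51 genes together took a median of 0.0926% of a passage 2 cell's reads and 0.518% of a passage 1 cell's. Mcm8, Gins3 and Cdc45 were on in no passage 2 cell, and each gene was on in at least 4 passage 1 cells. Only Orc3, Orc4, Orc6, Rfc1 and Rfc5 were on in more than 50% of passage 2 cells, against 34 of the 51 in passage 1 cells. The share of all genes on per cell was not computed beside these counts. Of 80 other genes of the pathway, a median of 26 were on in passage 2 cells and 46.5 in passage 1 cells. Of 12 housekeeping genes the median was 11 in both. Passage 2 cells had fewer reads, with a median of 885194 against 1227270, and fewer genes detected.

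**Figure D2:**
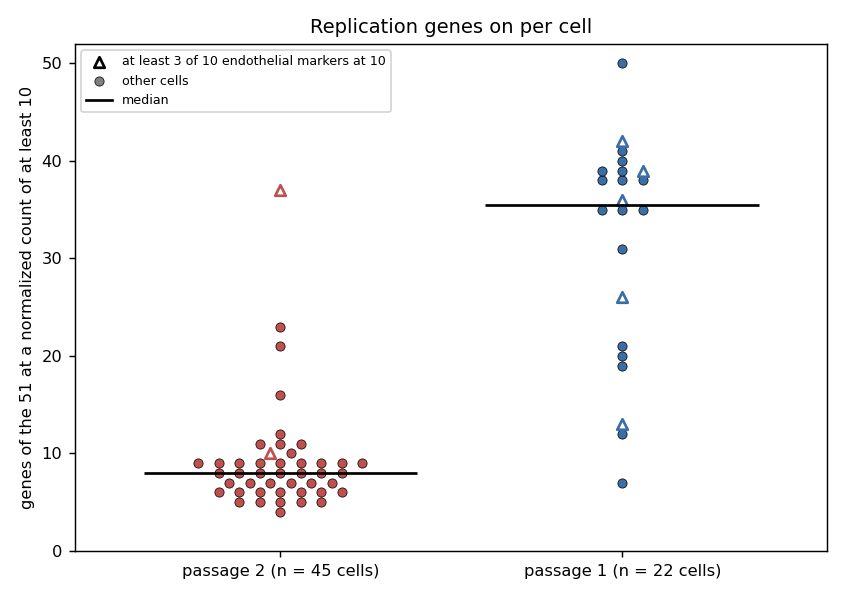
Number of the 51 genes at a normalized count of at least 10 (y axis) in each of 45 passage 2 and 22 passage 1 cells; each point is a cell, lines are medians, and triangles mark cells with at least 3 of 10 endothelial markers on. Most passage 2 cells lie at 12 or below and most passage 1 cells at 19 or above, and the highest passage 2 cell, at 37, is a triangle.

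A single passage 2 cell stood apart from the rest. Passage 2 cell 8 summed to 6510 over the 51 genes, which was 14.2% of the sum over all passage 2 cells where an even share is 2.22%, and it held the highest passage 2 value of 15 of the genes. Leaving out 1 cell moved the ratio of 20 of the 51 genes by more than 1.5-fold, and for 8 of them the cell that moved it most was cell 8. This cell had 9 of 10 endothelial markers on, 4 of 10 smooth muscle markers and none of 10 fibroblast markers. Without the 7 cells with endothelial markers, the median log2 ratio was -2.54, where that of the 9832 genes was -0.04. Of the 51 genes 44 were still at least 2-fold lower at passage 2, beside 18.6% of the 9832 genes. Pole2 and Tyms were now past that line, and Gins4 and Rpa3 no longer past it. The 10 endothelial markers summed to 0 to 7075 in passage 2 cells and 2.21 to 6256 in passage 1 cells, with a median log2 ratio of -1.20 and 7 of 10 at least 2-fold lower at passage 2, and their part in single genes was otherwise not tested.

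**Figure D3:**
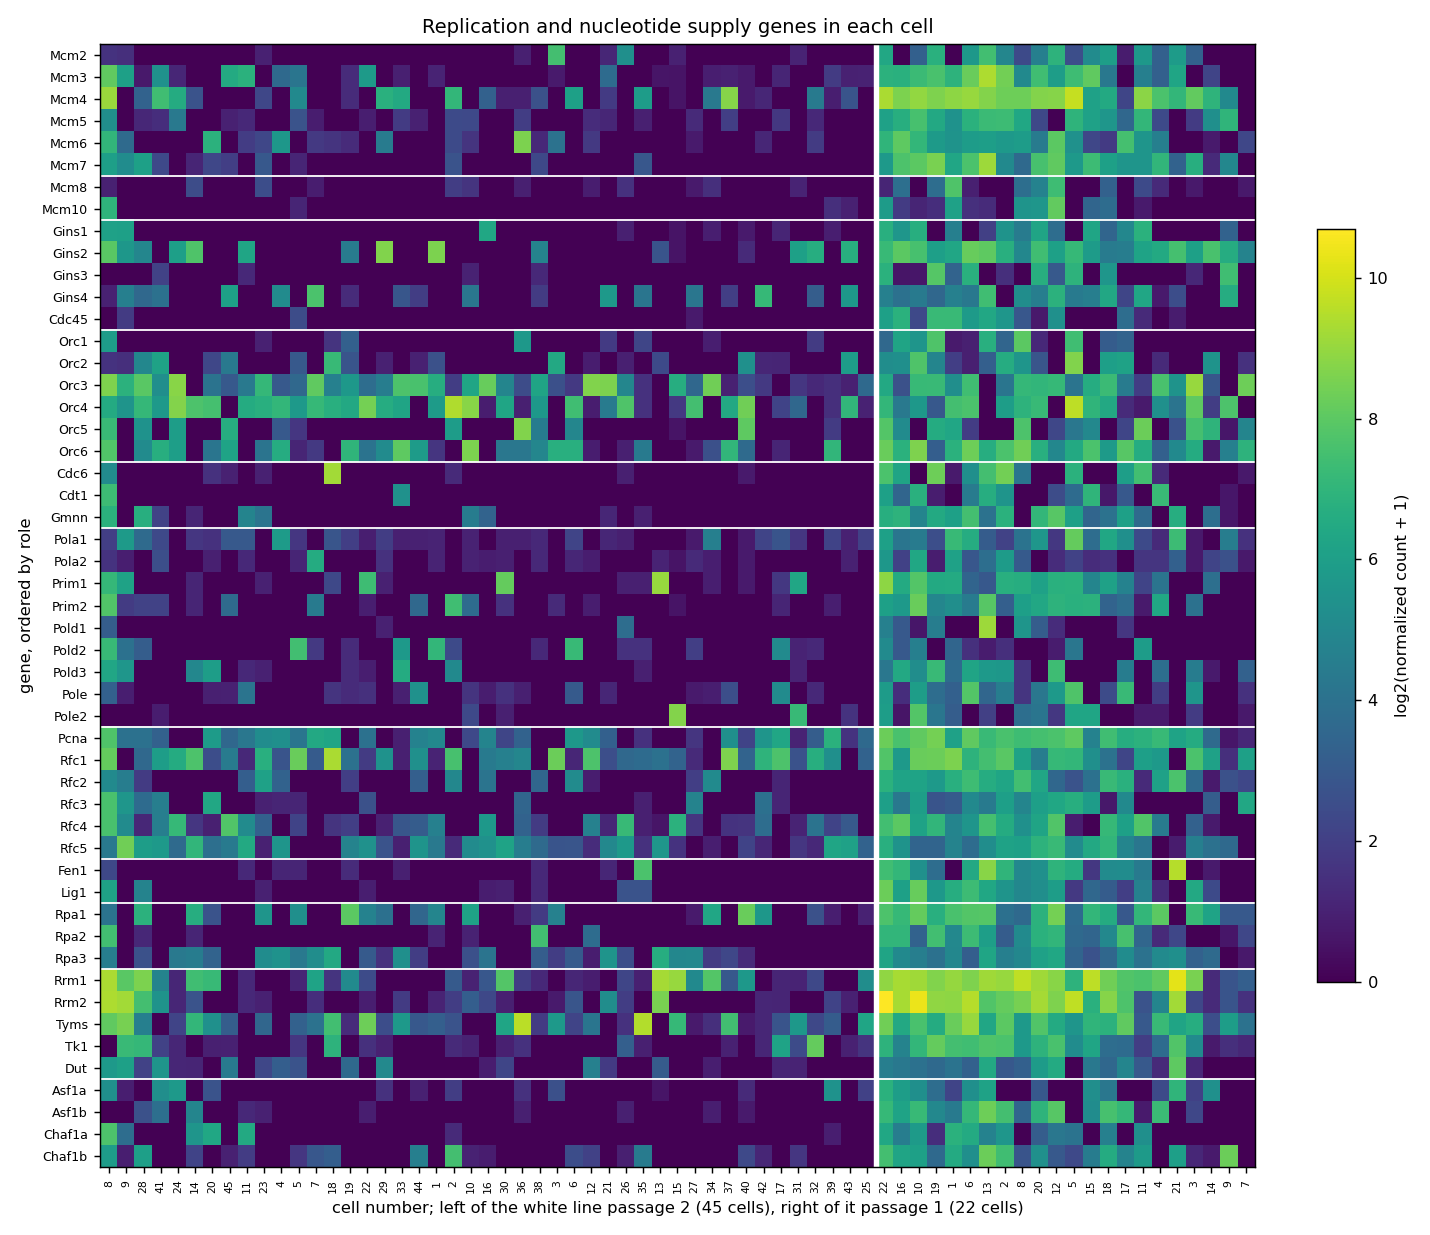
Value of each of the 51 genes (rows, by role) in every cell (columns) as log2(normalized count + 1), with the 45 passage 2 cells left of the white line and the 22 passage 1 cells right of it, each block ordered by the number of genes on. Passage 2 cell 8, at the far left, is bright in most rows, other passage 2 columns are bright mainly for Orc3, Orc4, Rfc1 and Rfc5, and passage 1 columns are bright in most rows except at the far right.

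The 6 subunits of the MCM helicase, the motor that unwinds DNA, were each at least 2-fold lower at passage 2, with a median log2 ratio of -2.97. Mcm7 (chromosome 5, 138164583 to 138172422, minus strand) was 0, 0 and 66.9 (lowest, median and highest normalized count) in passage 2 cells, against 0, 72.5 and 555 in passage 1 cells. Its means were 4.52 ± 14.4 at passage 2 and 130.4 ± 139 at passage 1 (SD over 45 and 22 cells), a log2 ratio of -4.57. In all, 3 passage 2 and 19 passage 1 cells had it on, and the highest passage 2 cell lay below the passage 1 median. Mcm4 (chromosome 16, 15623897 to 15637400), the most abundant subunit, was 0, 0.931 and 545 in passage 2 cells and 0, 354 and 856 in passage 1 cells, a log2 ratio of -2.96. Mcm4 was on in 12 passage 2 and 20 passage 1 cells, so its ranges overlapped although most passage 2 cells lay near 0. Mcm6 was the least lowered, at 0, 0 and 384 in passage 2 cells and 0, 44.9 and 259 in passage 1 cells, a log2 ratio of -1.90 that was -2.81 without passage 2 cell 36. The highest Mcm6 cell of all was thus a passage 2 cell. Mcm5 (-4.52, with the overlapping matches shown above), Mcm3 (-2.98) and Mcm2 (-2.69) completed the ring. Without passage 2 cell 8 Mcm3 was at -3.61, and without passage 2 cell 3 Mcm2 was at -4.22.

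All 6 helicase subunits were on together in no passage 2 cell, which allows a share of up to 6.67% as 3 cells of 45 and up to 7.87% by the exact interval, and in 6 of 22 passage 1 cells (27.3%, 10.7 to 50.2%). At least 4 were on in 1 passage 2 cell, cell 8, against 15 passage 1 cells, and none was on in 22 passage 2 cells against 1 passage 1 cell. The subunits form a ring with 1 copy of each, but their levels per kilobase of exon were unequal. They ran from 0.536 for Mcm5 to 11.2 for Mcm4 at passage 2, and from 5.43 for Mcm2 to 89.3 for Mcm4 at passage 1. The length used was the union of all annotated exons of a gene, and not that of 1 transcript. It was 6.96 kb for Mcm2 and 3.59 kb for Mcm4. Mcm7 also holds the miRNAs Mir25 and Mir93 on its own strand and overlaps exons of Cops6 and Ap4m1 on the other.

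Mcm8 and Mcm10 are named with the family but are no part of that ring. Mcm8, which works in homologous recombination, was 0, 0 and 4.84 in passage 2 cells against 0, 0.78 and 213 in passage 1 cells, a log2 ratio of -3.85 that was -3.07 without passage 1 cell 1. Mcm10, which helps to start the assembled helicase, was 0, 0 and 124 in passage 2 cells against 0, 1.34 and 277 in passage 1 cells, a log2 ratio of -2.70. Single cells set that value: passage 2 cell 8 held 97% of the passage 2 sum, and the ratio was -4.52 without it and -1.76 without passage 1 cell 12. Both genes were near 0 in most cells of either passage.

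Cdc45 and the 4 GINS subunits complete the active helicase. Gins3 (chromosome 8, 95633453 to 95645060, plus strand) was 0, 0 and 3.27 in passage 2 cells against 0, 0.943 and 235 in passage 1 cells. Its means were 0.155 ± 0.57 at passage 2 and 41.6 ± 68.2 at passage 1, a log2 ratio of -5.21 over 7 reads at passage 2 and 1297 at passage 1. Gins3 was on in 7 passage 1 cells alone, with the rest near 0. Cdc45 had the same shape, with no passage 2 cell above 4.54 and 9 passage 1 cells on (log2 ratio -4.87, 8 reads at passage 2 and 1037 at passage 1). Gins2 (chromosome 8, 120578633 to 120589304) differed: it was 0, 0 and 401 in passage 2 cells against 20.9, 92.9 and 293 in passage 1 cells, a log2 ratio of -1.56. It was the only one of the 51 genes on in all 22 passage 1 cells, and it was on in 13 passage 2 cells, of which cells 1 and 29 lay above every passage 1 cell. Gins2 shares 2758 exon bases with Gse1 on the other strand, and whether counting used strand is not given in the sources used here. Gins4 was 0, 0 and 199.7 in passage 2 cells against 0, 19.8 and 170.1 in passage 1 cells, a log2 ratio of -1.17 that was -0.89 without passage 1 cell 13, and Gins1 stood at -2.42. All 4 GINS genes were on in no passage 2 cell and 3 passage 1 cells, and none in 22 passage 2 cells and no passage 1 cell.

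The origin recognition complex, which marks where replication starts, ran from 1 gene at nearly equal means to 1 that was over 8-fold lower at passage 2. Orc4 (chromosome 2, 48902824 to 48950277, minus strand) was 0, 75.8 and 686 in passage 2 cells against 0, 56 and 779 in passage 1 cells, with means of 107 ± 142 at passage 2 and 111 ± 170.0 at passage 1. Its log2 ratio was -0.05 over all cells and 0.43 without passage 1 cell 5, and it was on in 30 of 45 passage 2 cells and 15 of 22 passage 1 cells. Orc4 shares 446 exon bases with Acvr2a and 136 with Mbd5 on the other strand. Its ranges covered each other, and its passage 2 median was the higher. Orc3 was close to it, at 0, 19.2 and 436 in passage 2 cells against 0, 92.3 and 524 in passage 1 cells, a log2 ratio of -0.27. Orc1, an ATPase subunit, was at the other end, at 0, 0 and 59.1 in passage 2 cells against 0, 1.12 and 254 in passage 1 cells, a log2 ratio of -3.43. Orc1 was on in 2 passage 2 and 8 passage 1 cells. Between these ends stood Orc2 (-2.06, or -1.46 without passage 1 cell 5), Orc6 (-1.53) and Orc5 (-1.24, or -0.94 without passage 1 cell 11). Orc3 and Orc4 were on together in 48.9% of passage 2 cells (22 of 45, exact 95% interval 33.7 to 64.2%), against 59.1% of passage 1 cells (13 of 22, 36.4 to 79.3%), while all 6 subunits were on in no passage 2 cell and in 3 passage 1 cells. Orc2 shares 1150 exon bases with Nif3l1 on the other strand.

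**Figure D4:**
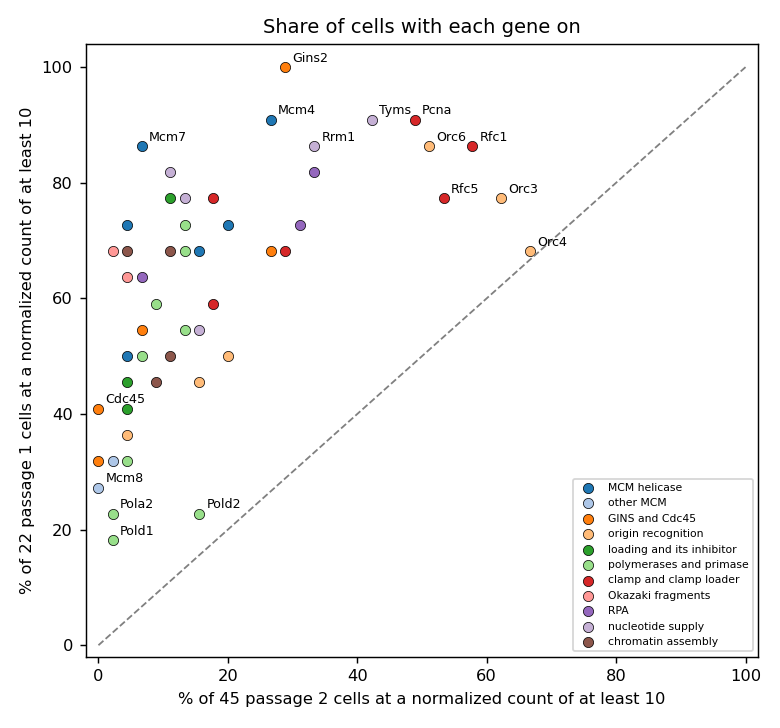
Share of passage 2 cells (x axis, %, n = 45) and of passage 1 cells (y axis, %, n = 22) with each of the 51 genes at a normalized count of at least 10, coloured by role. All genes lie above the dashed line of equal shares; Orc4 lies nearest to it, Gins2 reaches 100% of passage 1 cells, and Mcm8, Gins3 and Cdc45 lie at 0% of passage 2 cells.

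Cdc6 and Cdt1 load the helicase and geminin, the product of Gmnn, blocks Cdt1. Gmnn was 0, 0 and 114 in passage 2 cells against 0, 46.8 and 243 in passage 1 cells, a log2 ratio of -3.05. Gmnn was on in 5 passage 2 and 17 passage 1 cells. Cdc6 (chromosome 11, 98907801 to 98923940) was 0, 0 and 589.8 in passage 2 cells against 0, 1.08 and 335 in passage 1 cells, a log2 ratio of -2.22 that was -5.17 without passage 2 cell 18, which held 93.4% of the passage 2 sum. That cell was the highest for Cdc6 in either passage. Cdt1 stood at -2.49, or -3.99 without passage 2 cell 8. Cdt1 and Gmnn were on together in passage 2 cell 8 alone at passage 2 and in 8 passage 1 cells; Cdt1 without Gmnn in 1 passage 2 cell and 1 passage 1 cell; Gmnn without Cdt1 in 4 passage 2 cells and 9 passage 1 cells. Neither was on in 39 passage 2 cells and 4 passage 1 cells, passage 1 cells 3, 7, 8 and 9.

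The 9 genes of primase and the replicative polymerases had a median log2 ratio of -2.07 but the widest spread of any role. Pold1, the catalytic subunit of the lagging strand polymerase, was 0, 0 and 13.2 in passage 2 cells against 0, 0 and 552 in passage 1 cells, a log2 ratio of -4.39. Passage 1 cell 13 alone held 83.1% of the passage 1 sum, and the ratio was -2.09 without it. Pold2, which joins Pold1 to its other subunits, was 0, 0 and 174 in passage 2 cells against 0, 0 and 58.9 in passage 1 cells, with means of 16.3 ± 43.8 at passage 2 and 7.08 ± 14.7 at passage 1. It was on in 7 passage 2 and 5 passage 1 cells, so it was off in most cells of both, and its log2 ratio of 1.10 dropped under 1 without any 1 of passage 2 cells 1, 5, 6 or 8, to between 0.76 and 0.85. In cells matched on reads, as given above, Pold2 was lower at passage 2. The passage 2 cell held the higher Pold2 value in 47.3% of cell pairs. Prim1, the catalytic primase subunit, was 0, 0 and 524 in passage 2 cells against 0, 48.2 and 467 in passage 1 cells, a log2 ratio of -1.36 that was -2.06 without passage 2 cell 13 and -0.95 without passage 1 cell 22. It was on in 6 passage 2 and 16 passage 1 cells, although the highest cell was at passage 2. Pole, the leading strand polymerase (-3.39), Pola1, the catalytic subunit of the priming polymerase (-3.03), and Pold3 (-1.94) moved by less than 1.5-fold whichever cell was left out. Prim2 (-2.49) was at -3.29 without passage 2 cell 8, and Pola2 (-2.07) at -3.29 without passage 2 cell 7. Pole2 (-0.80) was at -2.42 without passage 2 cell 15, at -1.15 without passage 2 cell 31 and at -0.06 without passage 1 cell 10.

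The sliding clamp Pcna and the clamp loader genes Rfc1 to Rfc5 had a median log2 ratio of -1.70. Pcna (chromosome 2, 132249162 to 132253314, minus strand) was 0, 9.31 and 211 in passage 2 cells against 0.582, 158 and 347 in passage 1 cells, with means of 24.6 ± 39 at passage 2 and 153 ± 101 at passage 1 and a log2 ratio of -2.59. It was on in 22 passage 2 and 20 passage 1 cells, so that Pcna stayed on at a low level in many passage 2 cells, and it had at least 1 read in 22 of 22 passage 1 cells. The processed copy Pcna-ps2, which can share reads with it, averaged 0.825 at passage 2 and 6.82 at passage 1. Rfc1, the large loader subunit, was 0, 14.6 and 638 in passage 2 cells against 0, 69.3 and 384 in passage 1 cells, a log2 ratio of -0.62. Rfc2 was 0, 0 and 68.8 in passage 2 cells against 0.706, 72.6 and 203 in passage 1 cells, a log2 ratio of -3.32. Rfc5 was 0, 11.9 and 331 in passage 2 cells against 0, 27.1 and 149.5 in passage 1 cells, a log2 ratio of -0.52. The subunits of 1 loader thus spanned from Rfc2, near 0 in most passage 2 cells, to Rfc1 and Rfc5, on in 26 and 24 of them. Rfc3 (-1.71, or -2.47 without passage 2 cell 8) and Rfc4 (-1.68) lay between. All 5 loader genes were on in passage 2 cell 8 alone at passage 2 and in 8 passage 1 cells. In all, 16 of the 51 genes overlap exons of a gene on the other strand, and those not named with their overlap elsewhere are Cdc45 (Ufd1), Orc1 (Gm12743), Orc6 (Vps35), Pole (Gm15792), Lig1 (Zswim9) and Tk1 (Afmid). Rfc2 overlaps exons of Lat2, Rfc4 those of Eif4a2 and Rfc5 those of Wsb2, each on the other strand.

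Fen1, which trims Okazaki fragments, and Lig1, which seals them, were among the most lowered. Fen1 was 0, 0 and 204 in passage 2 cells against 0, 35.2 and 719 in passage 1 cells, a log2 ratio of -4.06. Passage 2 cell 35 held 94.2% of the passage 2 sum, and without it the ratio was -6.24. Lig1 was 0, 0 and 71.1 in passage 2 cells against 0, 33.8 and 312 in passage 1 cells, a log2 ratio of -4.17, or -5.01 without passage 2 cell 8. Fen1 was on in 1 passage 2 and 15 passage 1 cells, and Lig1 in 2 passage 2 and 14 passage 1 cells. Both were on together in no passage 2 cell and in 11 passage 1 cells. Fen1 shares 1909 exon bases with Gm10143 on the other strand.

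Replication protein A, made of Rpa1, Rpa2 and Rpa3, coats single-stranded DNA. Rpa1 was 0, 0 and 306 in passage 2 cells against 0, 125 and 354 in passage 1 cells, a log2 ratio of -2.19. Rpa2 was 0, 0 and 176 in passage 2 cells against 0, 21 and 191 in passage 1 cells, a log2 ratio of -2.65 that was -3.43 without passage 2 cell 8 and -3.42 without passage 2 cell 38. Rpa2 was on in 3 passage 2 cells and Rpa1 in 15, while at passage 1 they were on in 14 and 18. Rpa3 was 0, 2.89 and 99.2 in passage 2 cells against 0, 23.2 and 80.6 in passage 1 cells, a log2 ratio of -1.04. It lay at the 2-fold line, inside it at -0.91 to -0.94 without passage 1 cell 12, 13, 20 or 22. All 3 were on in passage 2 cell 8 alone at passage 2 and in 10 passage 1 cells.

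Nucleotide supply held the 2 genes with the highest passage 1 means of the 51, while at passage 2 Orc4, Orc3 and Rfc1 averaged more than any nucleotide supply gene. Rrm1 (chromosome 7, 102441695 to 102469771, plus strand), the large subunit of ribonucleotide reductase, was 0, 2.03 and 646 in passage 2 cells against 1.41, 422 and 1225 in passage 1 cells, with means of 77 ± 162 at passage 2 and 431 ± 294 at passage 1 and a log2 ratio of -2.47. Rrm2 (chromosome 12, 24708241 to 24714146, plus strand), the small subunit that is cell cycle controlled, was 0, 0.94 and 666 in passage 2 cells against 1.41, 378 and 1650 in passage 1 cells, with means of 42.9 ± 141 at passage 2 and 425 ± 433 at passage 1 and a log2 ratio of -3.28. Most passage 2 cells thus lay near 0 for either subunit, and a few lay among the passage 1 cells. Both subunits were on in 5 passage 2 cells, cells 8, 9, 13, 28 and 41, and in 17 passage 1 cells. Rrm1 was on without Rrm2 in 10 passage 2 cells and 2 passage 1 cells, and Rrm2 without Rrm1 in passage 2 cell 21 alone. Per kilobase of exon, Rrm2 averaged 15.5 at passage 2 and 153 at passage 1, and Rrm1 6.99 at passage 2 and 39.1 at passage 1.

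Tyms, the thymidylate synthase gene, was 0, 7.74 and 759.9 in passage 2 cells against 4.94, 97.8 and 524 in passage 1 cells, a log2 ratio of -0.88. Tyms was on in 19 passage 2 and 20 passage 1 cells, and its highest cell was at passage 2. The ratio was past the 2-fold line without passage 2 cell 35, at -1.17, and without passage 2 cell 36, at -1.19, and just at the line without passage 2 cell 9. Tk1, which salvages thymidine, had a log2 ratio of -2.36 and was on in 5 passage 2 and 18 passage 1 cells. Dut, whose product clears dUTP, had -2.08, or -1.46 without passage 1 cell 21. All 5 nucleotide supply genes were on in 1 passage 2 cell, cell 9, and in 12 passage 1 cells, and none was on in 15 passage 2 cells and 1 passage 1 cell, cell 14.

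The histone chaperone gene Asf1b had the lowest log2 ratio of the 51 genes with 1 added to each mean. With 0.1 added, Gins3 (-7.35) and Cdc45 (-6.93) lay below Asf1b (-6.08), and with 10 added Mcm7 (-3.27) lay below Asf1b (-3.13). Asf1b (chromosome 8, 83955507 to 83970197, plus strand) was 0, 0 and 28.3 in passage 2 cells against 0, 54.1 and 319.8 in passage 1 cells, with means of 1.2 ± 4.68 at passage 2 and 88.2 ± 93 at passage 1 and a log2 ratio of -5.34. Only 2 passage 2 cells had it on, against 15 passage 1 cells. Its paralog Asf1a had -2.33, with 1748 exon bases shared with Mcm9 on the other strand. Chaf1a, the large subunit of chromatin assembly factor 1, was 0, 0 and 210.2 in passage 2 cells against 0, 11.8 and 112 in passage 1 cells, a log2 ratio of -1.26 that was -2.05 without passage 2 cell 8, and it shares 4648 exon bases with Ubxn6 on the other strand. Chaf1b had -2.91, or -3.64 without passage 2 cell 2. Chaf1a and Chaf1b were on together in passage 2 cell 8 alone at passage 2 and in 9 passage 1 cells.

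The mitosis genes were lower at passage 2 as well. The 20 mitosis genes, such as Top2a and Mki67, were each at least 2-fold lower at passage 2, with a median log2 ratio of -3.22, and summed to 1.59 to 3870 (median 23) in passage 2 cells against 62.2 to 10502 (median 1367) in passage 1 cells. Between the number of replication genes on and the number of mitosis genes on, Spearman's rho was 0.10 over 45 passage 2 cells and 0.62 over 22 passage 1 cells, given as a description: both numbers come from the same library, and rho between replication genes on and genes detected was 0.35 at passage 2 and 0.60 at passage 1. Passage 2 cell 14 had a mitosis sum of 3320 with 11 replication genes on, and passage 2 cell 13 a mitosis sum of 1849 with 6 on. Passage 2 cell 8, with 37 replication genes on, had a lower mitosis sum than these 2 cells, 604, which was still above the passage 2 median of 23. Among passage 1 cells, cell 18 had the highest mitosis sum, 10502, with 35 replication genes on, and cell 5 had 803 with 35 on. Passage 1 cells 7, 9 and 14, lowest in replication genes, were also low in mitosis genes, with sums of 80.5, 301 and 62.2. A low mitosis sum also stood beside more replication genes: passage 1 cell 11 had 213 with 26 on, and cell 17 had 367 with 31 on. Neither Mki67 nor Top2a was on in 35 of 45 passage 2 cells and 6 of 22 passage 1 cells. Between these cells alone the median log2 ratio of the 51 genes was -1.62, with 34 at least 2-fold lower at passage 2. Over the 9832 genes the median was then 0.08, with 19.8% at least 2-fold lower. The 6 passage 1 cells were cells 3, 5, 7, 11, 14 and 17. They had 19, 35, 7, 26, 13 and 31 replication genes on, and cells 11 and 14 were endothelial marker cells. Passage 2 cell 13 had 4163 genes detected, among the fewest, and passage 1 cell 21 had 4017.

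**Figure D5:**
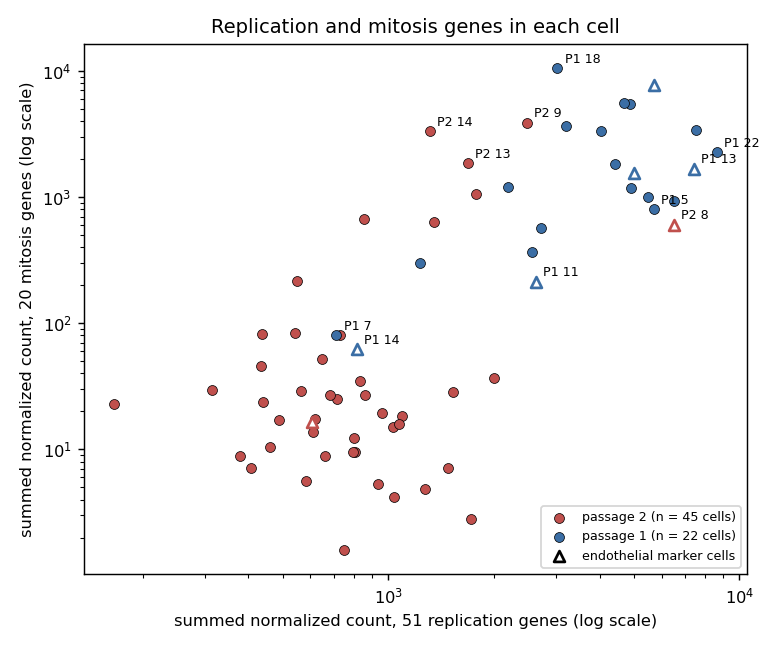
Summed normalized count of the 51 replication genes (x axis, log scale) and of 20 mitosis genes (y axis, log scale) in each cell, passage 2 in red (n = 45) and passage 1 in blue (n = 22), with triangles for endothelial marker cells. Passage 2 cell 8 lies among the passage 1 cells, passage 2 cells 9, 13 and 14 lie above the other passage 2 cells in mitosis genes, and passage 1 cells 7 and 14 lie among the passage 2 cells.

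Other genes of the pathway, 80 in all, had a median log2 ratio of -0.97. Of these, 70 passed the filter on low values. Of the 80, 40 were at least 2-fold lower and 1 at least 2-fold higher at passage 2, beside 18.7% and 15.3% of the 9832 genes. Of 27 fork and origin firing genes, 17 were at least 2-fold lower and none at least 2-fold higher at passage 2, with a median log2 ratio of -1.67. Clspn, a fork checkpoint mediator, averaged 0.707 ± 4.04 at passage 2 and 38.1 ± 48 at passage 1 (-4.52). Pole4, a small polymerase epsilon subunit, stood at 0.49, and Supt16, a histone chaperone and the most abundant of the list, at -0.29. Of 12 genes of S phase control, 8 were at least 2-fold lower, with a median of -1.36, from E2f8, a repressor of E2F targets, at -4.56 to Rb1, the retinoblastoma gene, at 0.26. Of 27 genes of nucleotide metabolism, 7 were at least 2-fold lower and 1 at least 2-fold higher, with a median of -0.67. Of the 4 lists, this one lay nearest to the all-gene share of 18.7% at least 2-fold lower. Rrm2b, the reductase subunit known as a p53 target and active outside S phase, averaged 17.3 ± 48.2 at passage 2 and 4.05 ± 6.48 at passage 1 (1.86), so its ratio of means stood opposite to that of Rrm2. The median Rrm2b value was 1.2 in passage 2 cells and 1.36 in passage 1 cells. It was on in 8 passage 2 and 3 passage 1 cells, so its higher passage 2 mean came from few cells. Of 14 genes of histone supply, 8 were at least 2-fold lower, with a median of -1.15, from Hat1, a histone acetyltransferase, at -2.88 to H3f3b, a histone made in all phases, at 0.69. The 12 housekeeping genes had a median of -0.12.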

How the data were processed

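Single-cell RNA-seq values of 45 passage 2 and 22 passage 1 cells were analysed. The deposited table holds a signal per gene and cell, which is a gene count divided by a size factor of that cell, made by the authors with BWA, SAMtools, HTSeq and DESeq on GRCm38, per the submitters' processing notes. Versions, strand and the handling of reads that map to several places are not given in the sources used here. Dividing each cell's values by their smallest step gave whole reads for 100% of 509576 values above 0, within 0.001, and those reads gave the depths. No 2 cells held the same values. Gene symbols, positions and exon lengths came from GENCODE on GRCm38, and promoters from RefSeq on GRCm38.p6.

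The log2 ratio used means over cells with 1 added. All-gene shares used genes with an average of the passage means of at least 5 and a read in at least 10% of cells. A gene was on in a cell at a value of 10. Every one of the 51 genes was named, the extremes of each role with their lowest, median and highest values, and the extremes and most abundant gene of each further list, except 1 gene that is not reported here. Promoters shown were those of the lowest gene of a role with the letters before the start and outside annotated exons, a narrowing chosen after the windows were seen. Shares have exact Clopper-Pearson intervals, and a count of 0 allows up to 3 counts. Python 3.11.15, pandas 2.3.3, scipy 1.17.1 and edgeR 4.0.16 were used. With 1 sample per passage no test was made, and a difference has no replicate check. The 51 genes and the lists were chosen with earlier results of these data known. Alternatives covered the pseudocount, scaling (TMM in edgeR), depth, the average used, the value called on, and the cells kept. Leaving out the 3 cells with under 5000 genes was added after seeing the data. Intervals cover the counting of cells only, and not differences between animals or dishes, which the labels do not name. The libraries are read counts without molecular identifiers in the sources used here. Doublets were not called.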

Additional observations from a re-analysis of the deposited data

How the results depend on the processing

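The median log2 ratio of the 51 genes stayed below -1.5 under each alternative tried. It was -1.55 with a pseudocount of 10, -3.68 with medians over cells (when all 9832 genes had a median of -0.41), -2.69 with means of log2 values (all genes -0.52), -2.92 in 12 cells per passage matched on reads (all genes -0.23) and -1.62 without cells with Mki67 or Top2a on (all genes 0.08). Leaving out each cell gave -2.67 to -2.28, with 42 to 45 genes at least 2-fold lower at passage 2. With all cells kept, 18.7% of the 9832 genes were at least 2-fold lower. Pold2 was at -1.53 in matched cells and -0.048 with means of log2 values. In matched cells 4 of the 51 genes were higher at passage 2, among them Prim1 (0.93) and Pole2 (2.07). Without cells with Mki67 or Top2a on, where 35 passage 2 and 6 passage 1 cells remained, 4 were higher, among them Pola2 (0.67) and Pold1 (0.037). The cause was not tested. Of 5 genes near 0 at passage 2, Gins3 was at -7.35 and Cdc45 at -6.93 with a pseudocount of 0.1. The share of passage 2 cells with at least 10 genes on was 37.8% after thinning to 500000 reads, 8.33% in matched cells, 100% when any read counted (median 20 genes) and 6.67% at a value of 50. For passage 1 cells it was 100% in matched cells and with any read, and 95.2 to 100% when each cell was left out. The passage 1 median was 22.5 genes without cells with Mki67 or Top2a on and 21.5 at a value of 50. Without the 3 cells with under 5000 genes the median was -2.46, with 45 genes at least 2-fold lower, beside 18.6% of the 9832 genes. Some values rest on few reads, such as 7 for Gins3 and 8 for Cdc45 at passage 2. No paired analysis was possible because the numbers of the cells pair nothing across passages.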

Other observations

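The passage 2 cells with the most replication genes on after cell 8 were cells 9, 28 and 41. They had 8, 8 and 7 of 10 smooth muscle markers on, where the passage 2 median was 5. Of 10 endothelial markers they had 1, 0 and 1 on, and of 10 fibroblast markers 2, 3 and 1. They also had 8179, 8731 and 8588 genes detected, where the passage 2 median was 7257. Spearman's rho between replication genes on and smooth muscle markers on was 0.37 at passage 2 and 0.08 at passage 1. Cell 41 had 16 replication genes on with a mitosis sum of 27, and cell 28 had 21 with a mitosis sum of 1056. Cell 41 was also the only passage 2 cell with both Asf1a and Asf1b on, and cell 28 the only one with all of Orc2 to Orc5 on. For 17 of the 51 genes the highest value of all 67 cells was in a passage 2 cell although the mean was lower at passage 2 for 16 of the 17, all but Pold2. For 14 of the 17 that cell was another than cell 8, such as passage 2 cell 36 for Mcm6, Orc5 and Tyms, cell 18 for Cdc6 and Rfc1, cell 7 for Gins4 and Pola2, and cell 13 for Prim1 and Rpa3.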
